A study of Mus musculus with 24 samples.

Results

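T cells of the ileum can be told apart by the proteins on their surface, and 9 genes for such proteins were followed here through antibiotic treatment in early life. They were Cd4, Cd8a and Cd8b1, which encode the T cell coreceptors, and Cd2, Cd5, Cd6, Cd7, Thy1 and Cd96, which encode other surface antigens of T cells. They were taken by name from the 547 genes of the panel, with earlier results of these data known, and all 9 were present. Transcripts were counted in whole terminal ileum, where the small intestine ends, from C57BL/6 mice at week 7. They were read on a NanoString nCounter mouse immunology panel, which counts colour-coded probes bound to RNA without amplification. The study asked whether 1 early course of a macrolide antibiotic changes the host as repeated courses do.

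There were 7 Control mice (4 males and 3 females), which had water without antibiotic. The 7 PAT1 mice (4 males and 3 females; PAT stands for pulsed antibiotic treatment) had 1 course of tylosin, a macrolide, that reached them as nursing pups through the treated dam. The 10 PAT3 mice (4 males and 6 females) had that same nursing course and 2 later ones in drinking water. These group sizes follow the labels. A figure legend of the study gives other sizes for PAT1 and PAT3, so the group of a mouse may be in doubt. Each sample was therefore also left out in turn, and the calls that change are given with the genes. No sample was moved to another group, so the effect of such a move was not tested. The title number of PAT3 replicate 10 lies among those of PAT1 and apart from those of the other PAT3 samples. That of Control replicate 5 likewise lies apart from those of the other Control samples. PAT3 replicate 10 was also the only sample of PAT3 with Cd8a (log2 value 6.59) within the PAT1 range (6.09 to 6.97). All groups were of 1 inbred strain with no engineered allele. Whole litters were assigned to treatments and weaned mice were kept apart by sex and treatment, so litter, cage and treatment cannot be told apart here, and the tests treat the mice as independent. Values are log2 of normalized counts, so a difference of 1 is a doubling, and differences were tested with limma with adjustment over all 547 genes. A gene is said to have risen or fallen where the adjusted p was under 0.05.

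The coreceptors bind the same antigen-presenting molecules as the T cell receptor does and bring the kinase Lck to it. CD4 binds MHC class II and marks helper and regulatory T cells. CD8 binds MHC class I and is built either from an alpha chain (Cd8a) and a beta chain (Cd8b1), as on conventional cytotoxic T cells, or from alpha chains alone, a form that is common on the intraepithelial lymphocytes of the small intestine. CD2 is an adhesion molecule, CD5 and CD6 are related scavenger receptor family proteins that tune signals of the T cell receptor, CD7 is an immunoglobulin family protein, Thy1 is a lipid-anchored glycoprotein that fibroblasts and neurons can also carry, and CD96 is a receptor of T and natural killer cells for nectin family ligands. None of the 9 is a perfect label. Mouse Cd4 is also transcribed in some dendritic cells and lymphoid tissue inducer cells, and Cd8a in some dendritic cells. Cd2 is also transcribed in B cells, and Cd5 in some of them.

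Total counts per sample ranged from 171671 to 782392, with PAT1 holding both ends. The ileal identity of the tissue was borne out by Ccl25, a chemokine of the small intestinal epithelium, at 6608 counts or more in every sample, and T cell content by Cd3d, Cd3e and Cd247, chains of the CD3 and zeta complex, at 21 counts or more in every sample. PAT1 replicates 2, 4 and 7 stood apart, since the mean of 14 B cell and follicle genes was 7.49, 7.13 and 8.55 log2 units in them and at most 6.53 in Control. Relative to Control, the median log2 value of a sample over the panel was shifted by −0.14 in PAT1 and by −0.19 in PAT3 on average, so small differences depend on the scaling, as given below for Cd4. Fewer T cells in the tissue and less RNA of a gene per T cell cannot be told apart in these samples.

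Part of the 9 T cell surface genes fell after PAT, with 3 called after 1 course and 5 after 3 courses, and none rose. In PAT1 those lower than in Control were Cd8a, Cd6 and Cd7 (3 of 9), where 11.2% of all 547 genes were called lower. In PAT3, 5 of 9 were lower than in Control (Cd4, Cd8a, Cd5, Cd6 and Cd7), where 17.9% of all genes were called lower. Between PAT3 and PAT1, 2 of 9 were lower in PAT3 (Cd8a and Cd2), where 2.74% of all genes were called lower. The F-test among the 3 groups called 5 of 9 (Cd8a, Cd2, Cd5, Cd6 and Cd7), against 34.6% of all genes. The median log2 fold change of the 9 genes was −0.67 in PAT1 and −0.73 in PAT3, while over all genes it was 0.01 and 0.03. Both comparisons share the Control samples.

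**Figure D1:**
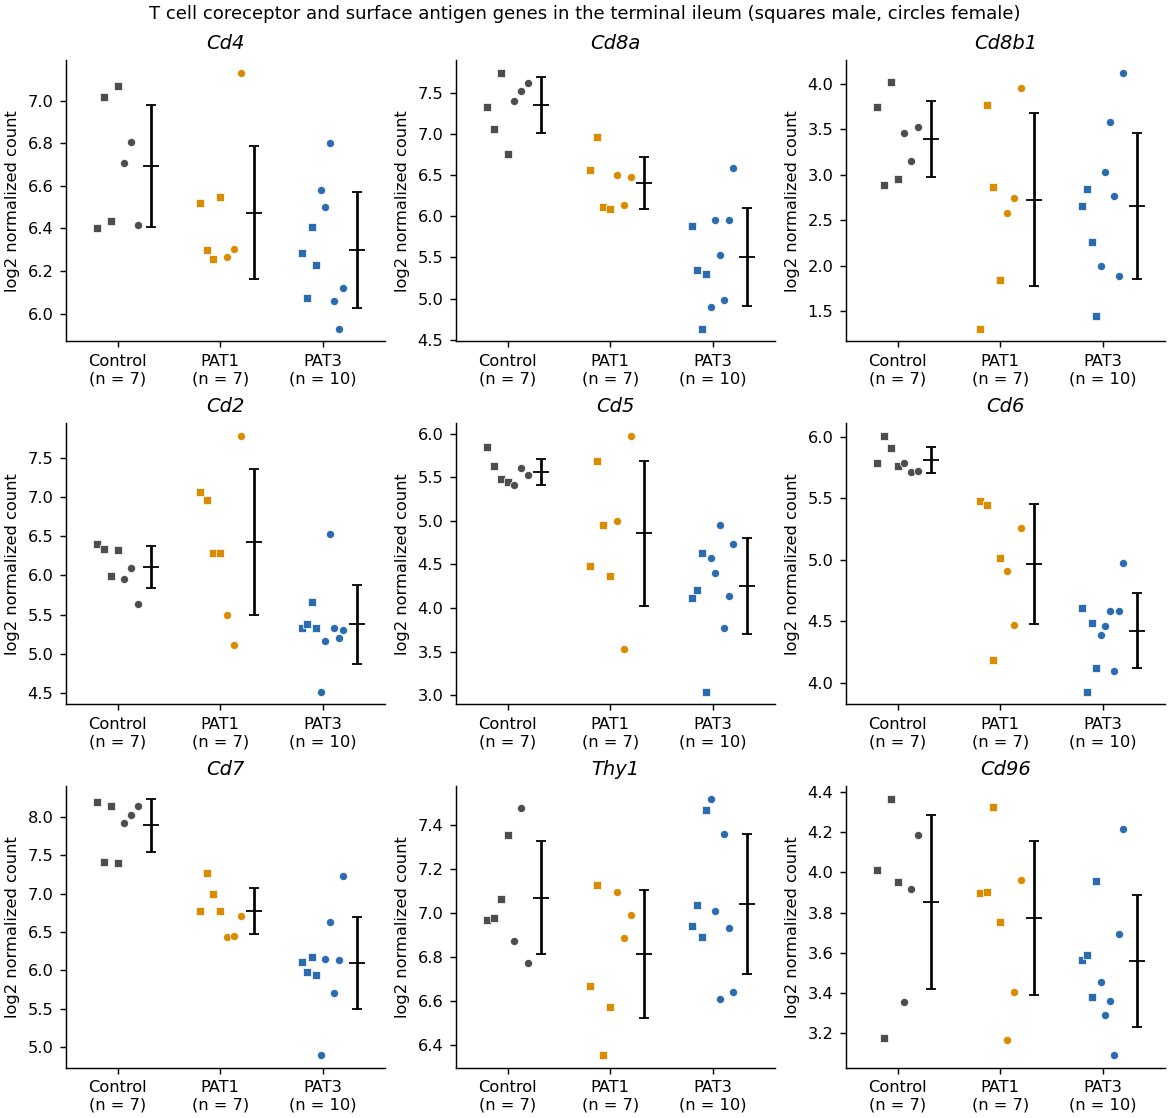
Log2 normalized count (y axis, a separate scale in each panel) of the 9 genes in each sample of Control (n = 7), PAT1 (n = 7) and PAT3 (n = 10), with males as squares, females as circles, and the group mean ± SD as a bar. All PAT3 samples lie below all Control samples for Cd8a, Cd5, Cd6 and Cd7, whereas the groups overlap for Cd4, Cd8b1, Cd2, Thy1 and Cd96.

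Of the coreceptors, Cd8a moved most. Its log2 normalized count ranged from 6.76 to 7.74 in Control (median 7.40), from 6.09 to 6.97 in PAT1 (median 6.48) and from 4.63 to 6.59 in PAT3 (median 5.44). Every PAT3 sample was below every Control sample, replicate 10 being the highest of them, and 6 of 7 PAT1 samples were, the exception being replicate 2. The group means were 7.35 ± 0.34 in Control, 6.41 ± 0.32 in PAT1 and 5.51 ± 0.60 in PAT3 (SD, n = 7, 7 and 10). Cd8a fell by 0.94 in PAT1 (SE 0.24, adjusted p = 0.00571) and fell by 1.84 in PAT3 (SE 0.22, adjusted p = 6.32e-07) on the log2 scale relative to Control. The Control, PAT1 and PAT3 medians of its recovered counts were 205, 76 and 47, at which the counting error is 6.98%, 11.5% and 14.6%, below the spread between mice.

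The stretch of genome just upstream of Cd8a is shown because this was the coreceptor gene with the largest change, and because Cd8b1 is its neighbour, with 0 protein-coding genes between them in the RefSeq table. The 250 bases before the annotated start lie on the plus strand at chr6:71373177-71373426 of build GRCm38.p6. Capitals mark every match on either strand to the core of an Ets factor motif (GGAA, or TTCC on the other strand) or to an E box (CANNTG), both searched because lymphocyte genes are known to use such factors.
Cd8a: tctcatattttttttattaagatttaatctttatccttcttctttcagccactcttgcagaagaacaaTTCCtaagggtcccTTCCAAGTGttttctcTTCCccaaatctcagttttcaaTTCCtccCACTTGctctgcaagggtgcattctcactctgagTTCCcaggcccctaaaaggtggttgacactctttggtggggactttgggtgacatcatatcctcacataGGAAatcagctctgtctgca
The window held 6 Ets cores, which 93.4% of 32851 promoter windows of the same length also held at least once, and 2 E boxes, which 66.2% held. One Ets core and one E box there share a base. A Runx motif (TGTGGT, or ACCACA) was not found in the window, and 14.0% of windows held it. These are matches of letters only, and no binding was measured.

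Cd8b1 was counted near the low end of the panel, with 29 of 547 genes below its mean level, and its differences were not resolved. The values ranged from 2.89 to 4.03 in Control (median 3.46), from 1.31 to 3.96 in PAT1 (median 2.75) and from 1.45 to 4.12 in PAT3 (median 2.71). Most antibiotic-treated samples were low, with 5 of 7 in PAT1 and 7 of 10 in PAT3 below all Control samples, but PAT3 replicate 10 was above them all. The Control, PAT1 and PAT3 means were 3.39 ± 0.42, 2.73 ± 0.95 and 2.66 ± 0.80. The log2 difference from Control was −0.67 in PAT1 (SE 0.38, adjusted p = 0.261) and −0.73 in PAT3 (SE 0.35, adjusted p = 0.112). Without PAT3 replicate 10 the latter was −0.89 (adjusted p = 0.0435), over a range of 0.0104 to 0.587 in all alternatives run. The counts behind these values are small, with medians of 11, 6 and 7.5 and a single count in PAT1 replicate 1, so that counting error alone is 30.2%, 40.8% and 36.5%. Negative control probes, which would show how much of such counts is background, were not analysed here.

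Cd4 moved less than Cd8a. Its log2 value ranged from 6.40 to 7.07 in Control (median 6.71), from 6.26 to 7.13 in PAT1 (median 6.30) and from 5.93 to 6.80 in PAT3 (median 6.26). The groups overlapped: 6 of 10 PAT3 samples and 4 of 7 PAT1 samples were below all Control samples, whereas PAT1 replicate 7 was above them all. The Control, PAT1 and PAT3 means were 6.69 ± 0.28, 6.47 ± 0.31 and 6.30 ± 0.27. The difference of PAT1 from Control was −0.22 (SE 0.16, adjusted p = 0.393). Cd4 fell by 0.39 in PAT3 (SE 0.15, adjusted p = 0.0448), with 9 of 10 samples below the Control mean, but that call was close to the threshold. It was lost when each sample was re-centred on its own median (−0.20, adjusted p = 0.196), under quantile normalization (−0.17, adjusted p = 0.255) and in the test of the study's methods (adjusted p = 0.0996). In limma it was lost with the mean of the mature enterocyte genes (−0.29, adjusted p = 0.0772) or of the B cell and follicle genes (−0.31, adjusted p = 0.111) as a covariate. The same held in males alone (−0.48, adjusted p = 0.0839) and in females alone (−0.31, adjusted p = 0.5). The call was also lost on leaving out any 1 of 12 samples, namely Control replicate 2, 4, 5 or 6, PAT1 replicate 4, or PAT3 replicate 1, 2, 3, 4, 8, 9 or 10 (log2 difference −0.41 to −0.33, adjusted p 0.0512 to 0.104). Over all alternatives the adjusted p of Cd4 in PAT3 ran from 0.00153, in the comparison relative to CD3 where the direction turned, to 0.5.

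The comparison of CD8 with CD4 genes was made within each sample, as a log2 ratio in which the scaling of the sample cancels. A ratio of different probes has no meaning as a level, so only its difference between groups is used. Cd8a over Cd4 ranged from −0.31 to 1.31 in Control (median 0.72), from −0.65 to 0.67 in PAT1 (median −0.14) and from −1.77 to 0.47 in PAT3 (median −0.83). All 10 PAT3 samples were below the Control mean and 8 of them were below every Control sample, with replicates 9 and 10 the exceptions. The Control, PAT1 and PAT3 means were 0.65 ± 0.59, −0.07 ± 0.44 and −0.79 ± 0.71. In PAT3 the ratio was 0.367 times that of Control (log2 difference −1.45, 95% interval −2.15 to −0.74, two-sided exact permutation p = 0.00103, adjusted p = 0.00926 over the 9 ratio comparisons). In PAT1 it was 0.606 times that of Control, which did not pass after adjustment (log2 difference −0.72, interval −1.33 to −0.11, exact permutation p = 0.0286, adjusted p = 0.0721). PAT3 was likewise 0.606 times PAT1, without passing (−0.72, interval −1.37 to −0.07, exact permutation p = 0.0320, adjusted p = 0.0721). The PAT1 difference passed without Control replicate 4 (−0.88, adjusted p = 0.0175) or without PAT1 replicate 2 (−0.84, adjusted p = 0.0402), and that between PAT3 and PAT1 without PAT3 replicate 9 (−0.81, adjusted p = 0.0415) or 10 (−0.86, adjusted p = 0.0205), by exact permutation. Over all alternatives the adjusted p ran from 0.0175 to 0.429 for PAT1 and from 0.0205 to 0.536 between PAT3 and PAT1.

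The beta chain gave another picture. Cd8b1 over Cd4 ranged from −4.12 to −2.41 in Control (median −3.25), from −5.21 to −2.54 in PAT1 (median −3.55) and from −4.77 to −2 in PAT3 (median −3.55), with wide overlap. Its log2 difference from Control was −0.45 in PAT1 (interval −1.41 to 0.50, exact permutation p = 0.320) and −0.34 in PAT3 (interval −1.13 to 0.46, exact permutation p = 0.381), and these intervals hold both no change and a fall of over 1 log2 unit. Between PAT3 and PAT1 the difference was 0.11 (interval −0.78 to 1.01, exact permutation p = 0.792). The adjusted p was 0.480, 0.490 and 0.792.

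Cd8b1 over Cd8a, which compares the chains of the CD8 heterodimer, ranged from −4.37 to −3.58 in Control (median −3.94), from −5.25 to −2.52 in PAT1 (median −3.38) and from −4.07 to −1.95 in PAT3 (median −2.70). In PAT3, 9 of 10 samples were above the Control mean, replicate 9 being the exception. The Control, PAT1 and PAT3 means were −3.96 ± 0.28, −3.68 ± 0.88 and −2.85 ± 0.69. In PAT3 the ratio was 2.16 times that of Control (log2 difference 1.11, interval 0.51 to 1.70, exact permutation p = 0.00247, adjusted p = 0.0111). The difference in PAT1 was 0.27 (interval −0.49 to 1.0, exact permutation p = 0.461, adjusted p = 0.519). Between PAT3 and PAT1 it was 0.84 (interval 0.02 to 1.66, exact permutation p = 0.0436, adjusted p = 0.0785), which passed without PAT1 replicate 7 (1.03, adjusted p = 0.0453) or PAT3 replicate 9 (0.97, adjusted p = 0.0415), over a range of 0.0415 to 0.536 in all alternatives. Both ratios of Cd8b1 rest on its few counts, and its background was not measured here. The ratio over Cd8a therefore does not show that the beta chain transcript fell less.

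**Figure D2:**
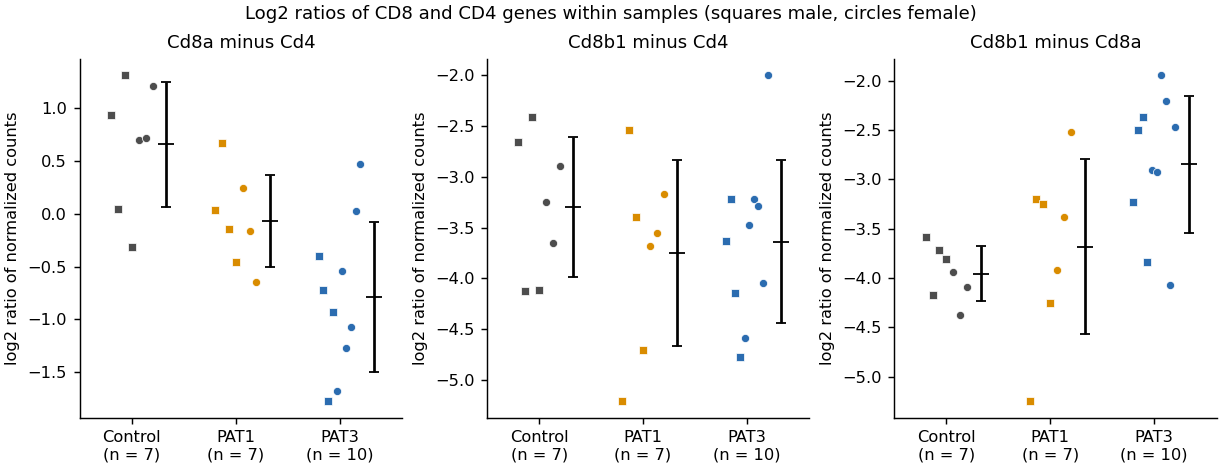
Log2 ratio of normalized counts within each sample (y axis) for Cd8a over Cd4, Cd8b1 over Cd4 and Cd8b1 over Cd8a, in Control (n = 7), PAT1 (n = 7) and PAT3 (n = 10), with males as squares, females as circles and the group mean ± SD as a bar. Cd8a over Cd4 steps down from a mean of 0.65 in Control to −0.79 in PAT3, Cd8b1 over Cd4 overlaps between groups, and Cd8b1 over Cd8a is higher in PAT3 than in Control.

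Cd7, Cd6 and Cd5 fell beside Cd8a. Cd7 ranged from 7.40 to 8.20 in Control (median 8.03), from 6.44 to 7.28 in PAT1 (median 6.77) and from 4.90 to 7.23 in PAT3 (median 6.12). No sample of either antibiotic group reached the lowest Control sample, and replicate 10 was again the highest of PAT3. The means were 7.89 ± 0.34, 6.77 ± 0.29 and 6.10 ± 0.60, and Cd7 fell by 1.12 in PAT1 (SE 0.24, adjusted p = 0.00162) and fell by 1.80 in PAT3 (SE 0.22, adjusted p = 7.00e-07). Its counts were ample, with medians of 294, 91 and 77.5.

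Cd6 was the most even of the 9 genes in Control, where it ranged from 5.71 to 6.01 (median 5.78). It ranged from 4.19 to 5.48 in PAT1 (median 5.01) and from 3.93 to 4.97 in PAT3 (median 4.47), again with no sample reaching the lowest of Control. The means were 5.81 ± 0.11, 4.96 ± 0.49 and 4.42 ± 0.31. Cd6 fell by 0.84 in PAT1 (SE 0.18, adjusted p = 0.00172) and fell by 1.39 in PAT3 (SE 0.17, adjusted p = 6.32e-07). Among the 9 genes, those with every sample below every Control sample were 2 in PAT1 (Cd6 and Cd7), against 3.84% of all genes, and 4 in PAT3 (Cd8a, Cd5, Cd6 and Cd7), against 7.31% of all genes.

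Cd5, the neighbour of Cd6 with 0 protein-coding genes between them, ranged from 5.41 to 5.85 in Control (median 5.52), from 3.53 to 5.97 in PAT1 (median 4.95) and from 3.04 to 4.95 in PAT3 (median 4.31). PAT1 was widely spread, with 5 of 7 samples below all Control samples and replicates 2 and 7, the libraries with the highest B cell gene means, at 5.69 and 5.97. The means were 5.56 ± 0.15, 4.86 ± 0.83 and 4.26 ± 0.55. Cd5 fell by 1.31 in PAT3 (SE 0.27, adjusted p = 0.000663). In PAT1 the difference of −0.71 did not pass (SE 0.29, adjusted p = 0.0994). It passed without PAT1 replicate 2 (−0.85, adjusted p = 0.0461), without PAT1 replicate 7 (−0.89, adjusted p = 0.0234) and without replicates 2, 4 and 7 together (−1.07, adjusted p = 0.0119), the range over all alternatives being 0.00594 to 0.622.

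The promoter window of Cd5 is given beside that of Cd8a, as the second of the 4 genes that separated PAT3 from Control for which a window was at hand. The 198 bases before the outermost annotated start lie on the minus strand at chr19:10739027-10739224 of GRCm38.p6, and capitals again mark Ets cores and E boxes.
Cd5: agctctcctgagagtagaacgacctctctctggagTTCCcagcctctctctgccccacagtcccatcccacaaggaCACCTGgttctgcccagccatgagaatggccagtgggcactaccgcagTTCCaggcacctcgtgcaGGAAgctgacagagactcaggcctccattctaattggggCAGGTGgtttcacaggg
It held 3 Ets cores (89.0% of windows of that length held at least 1) and 2 E boxes (58.7%), and no Runx motif (11.4%). Neither window therefore differs from most promoters in holding an Ets core or an E box. In number, the Cd8a window held 6 Ets cores against a median of 3 over all windows of its length. The Cd5 window held 3 against a median of 2, and each held 2 E boxes against a median of 1.

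Cd2 behaved differently, being high in part of PAT1. It ranged from 5.64 to 6.40 in Control (median 6.09), from 5.11 to 7.78 in PAT1 (median 6.29) and from 4.52 to 6.53 in PAT3 (median 5.33). In PAT1, replicates 1, 2 and 7 were above every Control sample and replicates 5 and 6 below, while 8 of 10 PAT3 samples were below every Control sample. The means were 6.11 ± 0.27, 6.43 ± 0.93 and 5.37 ± 0.50. The difference from Control was 0.32 in PAT1 (SE 0.31, adjusted p = 0.525) and −0.73 in PAT3 (SE 0.29, adjusted p = 0.0509), so neither passed. The PAT3 difference was close to the threshold. It passed without any 1 of 6 samples, namely Control replicate 7, PAT1 replicate 1, 5, 6 or 7, or PAT3 replicate 7 (−0.86 to −0.73, adjusted p 0.0142 to 0.0463), within a range of 0.00116 to 0.574 over all alternatives.

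Thy1 and Cd96 showed no difference that passed. Thy1 ranged from 6.77 to 7.48 in Control, from 6.36 to 7.13 in PAT1 and from 6.61 to 7.52 in PAT3, with means of 7.07 ± 0.26, 6.81 ± 0.29 and 7.04 ± 0.32. Its log2 difference from Control was −0.26 in PAT1 (SE 0.16, adjusted p = 0.324) and −0.03 in PAT3 (SE 0.15, adjusted p = 0.894), and the latter turned to 0.16 with each sample re-centred on its median. Cd96, of which the panel counted a median of 17, 11 and 13.5 molecules, ranged from 3.18 to 4.36 in Control, from 3.17 to 4.32 in PAT1 and from 3.09 to 4.22 in PAT3. Its means were 3.85 ± 0.43, 3.77 ± 0.38 and 3.56 ± 0.33, and its difference from Control was −0.08 in PAT1 (SE 0.20, adjusted p = 0.839) and −0.29 in PAT3 (SE 0.18, adjusted p = 0.234).

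**Figure D3:**
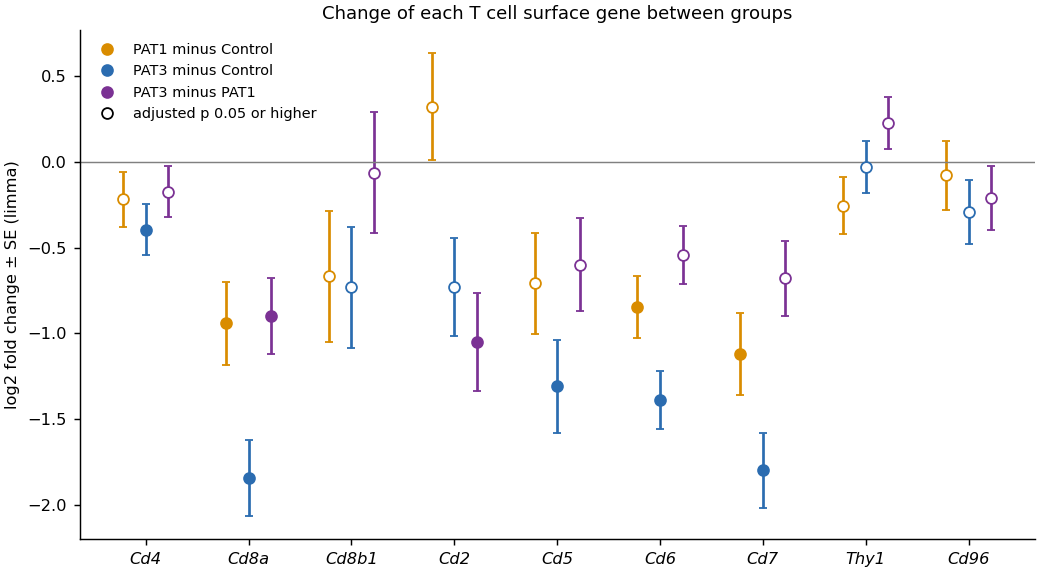
Log2 fold change ± SE from limma (y axis) of each T cell surface gene (x axis) for each antibiotic group against Control and for PAT3 against PAT1, with filled points at an adjusted p under 0.05. The PAT3 estimates against Control of Cd8a (−1.84), Cd7 (−1.80), Cd6 (−1.39) and Cd5 (−1.31) lie lowest, and those of Thy1 lie near 0.

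Whether 3 courses differed from 1 was tested directly. Cd8a was lower in PAT3 than in PAT1 by 0.90 (log2 difference −0.90, SE 0.22, adjusted p = 0.0401), with 9 of 10 PAT3 samples below every PAT1 sample. Cd2 was lower by more (log2 difference −1.05, SE 0.29, adjusted p = 0.0401), with 9 of 10 PAT3 samples below the PAT1 mean. Cd7 (−0.68, adjusted p = 0.0576), Cd6 (−0.54, adjusted p = 0.0562) and Cd5 (−0.60, adjusted p = 0.142) pointed the same way without passing, and Cd4 (−0.18), Cd8b1 (−0.06), Cd96 (−0.21) and Thy1 (0.23) had adjusted p between 0.344 and 0.932. These calls lay near the threshold. Both Cd8a and Cd2 missed the threshold without any 1 of PAT1 replicates 1, 2, 4 and 7 or PAT3 replicates 1, 2, 3, 4, 5, 6, 8 and 9 (Cd8a −0.95 to −0.80, Cd2 −1.08 to −0.83, adjusted p 0.0535 to 0.135 for each), and neither passed in the test of the study's methods (adjusted p = 0.156 and 0.157). In turn Cd6 and Cd7 passed without PAT1 replicate 5 or 6 or PAT3 replicate 7 or 10 (adjusted p 0.0201 to 0.0458 for Cd6 and 0.0251 to 0.0401 for Cd7), Cd6 also without PAT1 replicate 3 (−0.67, adjusted p = 0.0333), and Cd5 without PAT1 replicate 6 (−0.82, adjusted p = 0.0268). Over all alternatives the adjusted p ran from 0.0146 to 0.692 for Cd8a, from 0.00662 to 0.746 for Cd2, from 0.0201 to 0.806 for Cd6, from 0.0141 to 0.746 for Cd7 and from 0.0268 to 0.98 for Cd5.

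The T cell surface genes were then set against the signalling complex that all T cells share. Of 9 measured genes of the T cell receptor complex and its proximal signalling, 2 fell in PAT1 and 7 in PAT3, and none rose. Their median log2 fold change was −0.40 and −0.77. Between PAT3 and PAT1, 2 were lower in PAT3 (Cd3d, −0.88, and Lck, −0.71, adjusted p = 0.0401 for each). Over the panel, 11.2% of genes were called lower in PAT1, 17.9% in PAT3 and 2.74% in PAT3 against PAT1. Those of the 9 that fell in PAT1 were Cd3e and Ptpn22, a phosphatase of the pathway (−0.72, adjusted p = 0.00746). Cd3e fell by 0.90 in PAT1 (adjusted p = 0.000355) and fell by 1.38 in PAT3 (adjusted p = 1.50e-07). Cd3d fell by 1.27 in PAT3 (adjusted p = 3.70e-05), Lck, the kinase that CD4 and CD8 carry, fell by 1.09 (adjusted p = 1.46e-05) and Cd247, the zeta chain, fell by 0.84 (adjusted p = 0.00286). In PAT1 the differences of these last genes were −0.40, −0.38 and −0.43 and did not pass (adjusted p = 0.261, 0.152 and 0.198).

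When each gene was expressed relative to the mean of Cd3d, Cd3e and Cd247 in the same sample, the 9 genes split. In PAT3, Cd8a (−0.67, adjusted p = 0.00367) and Cd7 (−0.63, adjusted p = 0.00551) were still lower than in Control, so that they fell by more than the CD3 genes did. Cd5 (−0.14, adjusted p = 0.546) and Cd6 (−0.22, adjusted p = 0.241) no longer passed. Cd4 (0.77, adjusted p = 0.00153), Thy1 (1.14, adjusted p = 0.000153) and Cd96 (0.88, adjusted p = 0.000655) were higher than in Control relative to CD3, the opposite direction from the deposited scaling, and Cd8b1 (0.44, adjusted p = 0.153) and Cd2 (0.44, adjusted p = 0.110) did not pass. In PAT1, Cd7 remained lower relative to CD3 (−0.54, adjusted p = 0.0453), Cd2 was higher (0.90, adjusted p = 0.0121), and Cd8a (−0.37, adjusted p = 0.167), Cd6 (−0.27, adjusted p = 0.227) and Cd4 (0.36, adjusted p = 0.192) did not pass. Such values are differences in proportion to CD3 and say nothing of the amount in the tissue. Because the CD3 genes fell, a gene near 0 on the deposited scaling, such as Thy1 in PAT3 (−0.03), comes out higher by construction. The share of all genes called higher relative to CD3 was not counted.

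**Figure D4:**
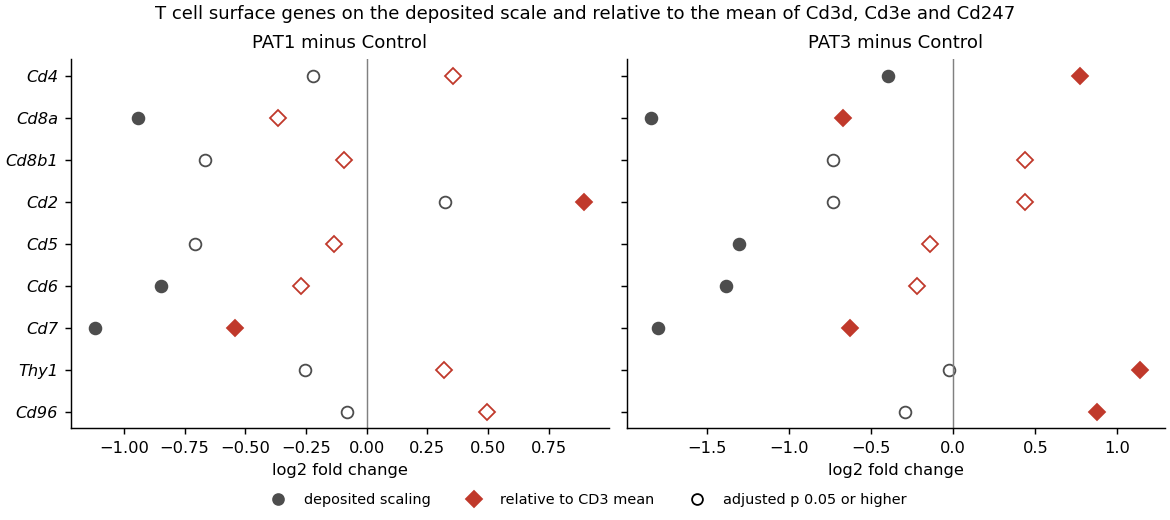
Log2 fold change (x axis) of each gene (y axis) in PAT1 and in PAT3 relative to Control, on the deposited scaling (circles) and relative to the mean of Cd3d, Cd3e and Cd247 in the same sample (diamonds), with filled symbols at an adjusted p under 0.05. Relative to CD3, Cd8a and Cd7 stay below 0 in PAT3 while Cd4, Thy1 and Cd96 lie above it.

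The ligands and partners of these proteins fell in part. Of 13 measured, 4 fell and 1 rose in PAT1, where 11.2% of all 547 genes were called lower and 40 genes higher. In PAT3, 7 fell and 2 rose, where 17.9% of all genes were called lower and 76 genes higher. Between PAT3 and PAT1, 1 was lower in PAT3, where 2.74% of all genes were. It was Lck, which the list shares with that of the receptor complex. The MHC class II genes, whose products CD4 binds, were among those that fell most: H2-Aa with log2 fold changes of −1.19 in PAT1 and −1.62 in PAT3, H2-Ab1 with −1.20 and −1.61, and H2-Eb1 with −0.88 and −1.28. Their adjusted p in PAT3 was 3.58e-07, 1.68e-08 and 3.58e-07. Of the class I genes, which CD8 recognises, H2-K1 did not pass (0.23 in PAT1, adjusted p = 0.462, and −0.17 in PAT3, adjusted p = 0.478), and neither did B2m, the shared light chain (0.18, adjusted p = 0.535, and −0.32, adjusted p = 0.136). Tigit, an inhibitory receptor that shares nectin family ligands with CD96, fell by 1.09 in PAT1 (adjusted p = 0.000540) and fell by 1.52 in PAT3 (adjusted p = 1.28e-06). Those that rose were H2-Q10, a class I gene outside the classical ones (0.69 in PAT1, adjusted p = 0.0203, and 0.84 in PAT3, adjusted p = 0.00179), and in PAT3 Cd59b (0.57, adjusted p = 0.0373), a complement regulator. H2-K1, B2m, H2-Q10, Cd59b and Ptpn22 were named after their values were seen, as were Cd83, Tnfrsf13c, Ltb and Btnl1 in what follows.

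Genes of intraepithelial and cytotoxic lymphocytes fell more widely, 7 of 15 in PAT1 and 11 of 15 in PAT3 (median log2 fold change −0.33 and −0.71), and none rose. The granzymes Gzma and Gzmb, proteases of cytotoxic granules, were at −2.52 and −2.33 in PAT3 (adjusted p = 1.23e-05 and 2.41e-06), the chemokine Ccl5 at −1.97 (adjusted p = 2.25e-05) and Klrd1, a natural killer receptor subunit that CD8 T cells also carry, at −1.25 (adjusted p = 6.32e-07). In PAT1 their log2 fold changes were −1.52, −1.62, −1.32 and −0.72 (adjusted p = 0.00791, 0.00117, 0.00568 and 0.00281). Of 16 helper and naive T cell genes, 1 fell in PAT1 and 3 in PAT3 (median −0.005 and −0.29), which is no more than the 11.2% and near the 17.9% of all genes called lower in these comparisons. They were Ctla4, an inhibitory receptor, at −0.97 in PAT1 (adjusted p = 0.00203) and −1.16 in PAT3 (adjusted p = 5.46e-05), and, in PAT3, the costimulatory receptor Icos at −0.95 (adjusted p = 0.00733) and the CD40 ligand gene Cd40lg at −0.51 (adjusted p = 0.0351). The difference between these lists was not tested.

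Markers of other cells moved less evenly. The mean of 14 B cell and follicle genes was 5.57 ± 0.55 in Control (range 5.08 to 6.53), 6.30 ± 1.42 in PAT1 (4.91 to 8.55) and 5.04 ± 0.38 in PAT3 (4.57 to 5.94), and no gene of the list was at 0 in any sample. Of its genes, 1 rose in PAT1 (Cd83, an activation marker, 0.62, adjusted p = 0.00624), 1 fell in PAT3 (Cd79b, a B cell receptor chain, −1.26, adjusted p = 0.0321) and 3 were lower in PAT3 than in PAT1 (Cd79b, −1.57, Tnfrsf13c, −1.47, and Ltb, −1.17, adjusted p = 0.0401 for each). Of all 547 genes, 17.9% were called lower in PAT3 than in Control and 2.74% lower in PAT3 than in PAT1. Within groups, Cd2 went with the B cell mean (r = 0.71 over 24 samples, permutation p = 8.00e-05, adjusted p = 0.000960 over 36 relations of genes and lists). The rank correlation was 0.50 (permutation p = 0.0133, adjusted p = 0.0685), r was 0.56 without the 2 samples farthest from the median, and within Control, PAT1 and PAT3 it was 0.42, 0.80 and 0.64. For Cd5 r was 0.61 (permutation p = 0.00173, adjusted p = 0.0156), rho 0.43 (adjusted p = 0.110) and r without the 2 farthest samples 0.39. For Cd8a r was 0.03 (adjusted p = 0.931). With PAT1 replicates 2, 4 and 7 left out, a choice made after the data were seen, the counts of genes that fell were 4 of 9 in PAT1 and 6 of 9 in PAT3. The share of all genes called lower was not counted in that fit. Neither Cd8a (−0.82, adjusted p = 0.306) nor Cd2 (−0.61, adjusted p = 0.357) then passed between PAT3 and PAT1, and the PAT1 difference of Cd2 from Control became −0.12 (adjusted p = 0.869). With the B cell mean as a covariate the difference of Cd2 between PAT3 and PAT1 was −0.41 (adjusted p = 0.543).

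**Figure D5:**
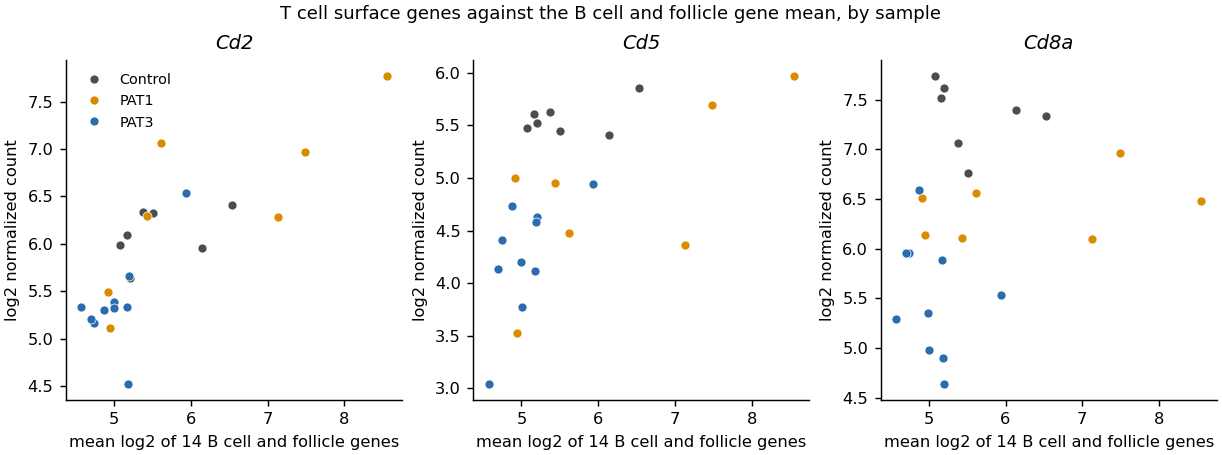
Log2 normalized count (y axis) of Cd2, Cd5 and Cd8a against the mean log2 value of 14 B cell and follicle genes (x axis), 1 point per sample, coloured by group. The PAT1 sample with the highest B cell mean (8.55) also has the highest Cd2 (7.78) and Cd5 (5.97), and Cd8a shows no such alignment.

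Of the remaining lists, that of 10 natural killer and innate lymphoid genes had 0 calls in PAT1 by limma and 0 by the test of the study's methods (1 by each at a p under 0.05 before adjustment over the genes). In PAT3, 2 of them fell (Klra6, −0.61, and Klra7, −0.69, receptors of a family so alike that probes may not fully separate its members) and 1 rose (Kit, 0.68). Their mean ranged from 4.89 to 5.35 in Control, from 4.80 to 5.55 in PAT1 and from 4.59 to 5.08 in PAT3. Of 16 myeloid and dendritic cell genes, 3 fell in each antibiotic group: Itgam (−0.92 in PAT1 and −0.68 in PAT3), Irf8 (−0.52 and −0.53) and Msr1 (−0.61 and −0.46). Of all 547 genes, 11.2% were called lower in PAT1 and 17.9% in PAT3. The myeloid and natural killer counts of genes that fell in PAT3 are near that share. Of 5 mature enterocyte genes, Ceacam1 fell (−1.26 and −1.05) and 2 rose in each group, Ccl25 in both (1.13 and 0.81), with Btnl1 the other in PAT1 (0.94) and Abcb1a in PAT3 (1.01). Over the panel, 40 of 547 genes rose in PAT1 and 76 in PAT3. The mean of the enterocyte genes ranged from 12.05 to 13.33 in Control, from 12.18 to 13.65 in PAT1 and from 11.80 to 13.57 in PAT3, and that of the myeloid genes from 6.73 to 7.24, from 6.55 to 7.06 and from 6.56 to 7.09. No gene of these lists was at 0 in any sample.

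Within groups, Cd4 went with the myeloid mean (r = 0.57, permutation p = 0.00438, adjusted p = 0.0231; rho 0.55, adjusted p = 0.0431; r = 0.38 without the 2 farthest samples) and against the enterocyte mean (r = −0.59, permutation p = 0.00278, adjusted p = 0.0200; rho −0.60, adjusted p = 0.0247; r = −0.67 without the 2 farthest). Within Control, PAT1 and PAT3 the r of Cd4 was 0.82, −0.04 and 0.84 with the myeloid mean and −0.90, −0.19 and −0.68 with the enterocyte mean. The r of Cd8a with these means, −0.41 and 0.43, did not pass (adjusted p = 0.104 for each). Within Control, PAT1 and PAT3 it was −0.83, 0.16 and −0.47 with the myeloid mean and 0.86, −0.46 and 0.57 with the enterocyte mean. The ratio of Cd8a over Cd4 was not tested with either mean as a covariate. Cd6 and Cd5 went with the mean of the T cell receptor genes (r = 0.78, permutation p = 1e-05, the smallest that 100000 resamples can give, adjusted p = 0.000360, and r = 0.73, permutation p = 3.00e-05, adjusted p = 0.000540; r = 0.75 and 0.67 without the 2 farthest; rho 0.73, adjusted p = 0.00324, and 0.63, adjusted p = 0.0211). With the same mean, r also passed for Cd2 (0.56, permutation p = 0.00449, adjusted p = 0.0231), Cd8a (0.52, permutation p = 0.00922, adjusted p = 0.0369) and Cd8b1 (0.52, permutation p = 0.00914, adjusted p = 0.0369), but their rank correlations of 0.43, 0.51 and 0.38 did not (adjusted p = 0.110, 0.0685 and 0.155), and r was 0.73, 0.37 and 0.27 without the 2 farthest samples. For Cd7 (0.46, adjusted p = 0.0770), Cd4 (0.35, adjusted p = 0.182), Cd96 (0.18, adjusted p = 0.513) and Thy1 (−0.23, adjusted p = 0.392) it did not pass. The part of these cell populations in the group differences was not tested beyond the covariates and omissions given here.

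Among the gene pairs, Cd8a and Cd8b1 had r of 0.49 within groups (permutation p = 0.0143, adjusted p = 0.0308 over 4 pairs) and Cd5 and Cd6 also 0.49 (permutation p = 0.0154, adjusted p = 0.0308). The rank correlations, 0.44 and 0.39, did not pass (adjusted p = 0.118 for each), and r was 0.34 and 0.33 without the 2 farthest samples, so neither relation held by every measure. Cd4 had r of −0.28 with Cd8a (permutation p = 0.185) and 0.04 with Cd8b1 (permutation p = 0.847). Within Control, PAT1 and PAT3 its r was −0.81, 0.05 and −0.24 with Cd8a and −0.92, 0.28 and 0.18 with Cd8b1. The genes whose within-group pattern over the 24 samples was most like that of Cd4 were Ncf4 (r = 0.81), a subunit of the phagocyte oxidase, Csf2rb (0.77), a shared cytokine receptor chain, and Irf5 (0.76), a transcription factor. For Cd8a they were Ccl5 (0.79), Irf7 (0.72), an interferon regulatory factor, and H2-K1 (0.66), and for Cd8b1 Cd40lg (0.71), Cd3d (0.57) and Cd3e (0.55). These genes were picked as the closest of the panel, so their r is a description only.

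Both sexes were present in every group, and the difference of the PAT effect between the sexes did not pass for any of the 9 genes (limma F-test of the interaction, adjusted p 0.636 to 0.864), where 0.183% of all genes passed. In males alone, 5 of the 9 genes fell in PAT3: Cd8a (−1.93, adjusted p = 0.000730), Cd7 (−1.74, adjusted p = 0.000246), Cd6 (−1.58, adjusted p = 0.00128), Cd5 (−1.60, adjusted p = 0.00557) and Cd2 (−0.84, adjusted p = 0.0156). In females alone, 3 fell, namely Cd8a (−1.86, adjusted p = 0.00292), Cd7 (−1.90, adjusted p = 0.00726) and Cd6 (−1.22, adjusted p = 0.00292), while Cd5 at −1.08 (adjusted p = 0.121) and Cd2 at −0.55 (adjusted p = 0.574) did not pass. The share of all genes called lower was not counted in the fits of a single sex. In PAT1, the males-only fit called Cd7 alone of the 9 (−0.84, adjusted p = 0.0276), and the females-only limma fit called 0 (3 at an unadjusted p under 0.05), with Cd8a at −1.14 (adjusted p = 0.108), Cd7 at −1.49 (adjusted p = 0.0806) and Cd6 at −0.86 (adjusted p = 0.0775). The log2 difference of Cd8a over Cd4 in PAT3 was −1.45 in males and −1.55 in females, against −1.45 in all mice.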

How the data were processed

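Counts of the nCounter panel were normalized by the authors in DESeq2, whose size factor puts the samples on 1 scale, and were deposited as log2 for 547 genes, with 19 values at 0. Whether background was subtracted is not given in the sources used here. Whole counts were recovered from the step of each sample (100% of values above 0 within 0.01 of a whole count) for depth and for 1 alternative. No 2 samples agreed within sampling noise.

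Groups and sex came from the labels, and replicate numbers follow sample order and pair nothing. All 24 samples were fitted in limma 3.58.1 (R 4.3.3) without covariates, filter or pseudocount, with Benjamini-Hochberg adjustment over 547 genes per contrast and a threshold of 0.05. Ratios were compared by two-sided exact permutation tests, with 95% intervals by inversion of the test and adjustment over 9 comparisons (Python 3.11.15, NumPy 2.4.6). Correlations used deviations from group means and 100000 permutations. The scripts were tested on simulated data.

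The 9 genes, the 8 gene lists and the tests were chosen with earlier results of these data known. All 9 genes are given in full. From each list, up to 4 genes were to be named, those with the largest absolute change among the genes called in PAT3 minus Control, and for Cd4, Cd8a and Cd8b1 the 3 genes with the highest within-group r.

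The alternatives were the test of the study's methods (R functions aov and TukeyHSD per gene), a filter at a mean log2 of 5, a pseudocount of 1, median re-centring, quantile normalization, values relative to CD3, voom, sample weights, covariates (sex, size factor, B cell mean and enterocyte mean), each sex alone, permutation within sex and a rank statistic for the ratios, and each sample left out in turn. RefSeq sequences of GRCm38.p6 gave promoter windows for 3 of the 9 genes. p-values measure the spread between these mice, and counting errors cover counting alone.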

Additional observations from a re-analysis of the deposited data

Results flagged for a closer look

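Cd4 in PAT1 replicate 7 was 7.13 log2 units, apart from the other PAT1 samples, of which the nearest was 6.55. Its gap to that sample was 0.669 of the range of the group of 7, above the 95% critical value of Dixon's test. Of 36 groups of values tested in this way, for the 9 genes and the 3 ratios, it was the 1 that stood out, and chance alone gives about 1 in 20. The same library had the highest total count (782392) and the highest B cell and follicle mean (8.55). The part of either in this value was not tested. Without this sample the difference of Cd4 between PAT1 and Control was −0.33 (adjusted p = 0.138, over a range of 0.137 to 0.877 in all alternatives), and it did not pass with or without it.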

How the results depend on the processing

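Of 1041 recomputed values of single genes and contrasts, 898 kept their direction and their side of the threshold, 65 kept the direction and lost the call, 41 kept it and gained one, and 37 turned direction. Of the 37, 12 were relative to CD3, where the fall of the CD3 genes themselves enters. A value on either side of the turn passed the threshold in 3: Cd4 (0.77), Thy1 (1.14) and Cd96 (0.88) in PAT3 minus Control relative to CD3. In the other 34 neither value passed, as for Cd8b1 (0.44) and Cd2 (0.44) in PAT3 minus Control relative to CD3 or Thy1 (0.16) after median re-centring. The falls of Cd8a and Cd7 in PAT3 passed under each alternative run (adjusted p at most 0.00367 and 0.00726). That of Cd6 passed under all alternatives that tested it but the one relative to CD3. The filter on low values left Cd6 out.

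The number of the 9 genes called was least stable between PAT3 and PAT1. It was 2 in the main fit. It was 0 by the test of the study's methods and with the size factor or the B cell mean as a covariate. It was also 0 in females alone and without the B-cell-rich PAT1 samples. Before adjustment over the genes, 4, 4, 2, 1 and 3 of the 9 genes had p under 0.05 in these (limma in all but the first). The p of the study's test is already adjusted over the 3 pairs of groups. The number was 1 relative to CD3, and that gene was Thy1, which was higher (0.82, adjusted p = 0.0147 by limma). Cd8a (−0.31, adjusted p = 0.203) and Cd2 (−0.46, adjusted p = 0.126) did not pass there. The number was 4 with voom, sample weights or the enterocyte covariate, and from 0 to 5 on leaving out 1 sample, as listed above. The count for PAT1 was 3, but 5 with sample weights, 1 in males alone and 0 in females alone. That for PAT3 was 5, but 3 in females alone. It was 4 by the test of the study's methods, with the filter, under median re-centring or quantile normalization and with the B cell or the enterocyte covariate, 6 with voom, the size factor covariate or the B-cell-rich samples left out, 7 with sample weights, and 4 to 6 on leaving out 1 sample. The F-test called 5, but 3 in females alone and 3 with the filter on low values, which left 5 of the 9 genes to test. The share of all genes called was counted in the main fit only.

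In each sex alone the ratios that had passed kept their direction and no longer passed by exact permutation. In PAT3, Cd8a over Cd4 was −1.45 in males (adjusted p = 0.257) and −1.55 in females (adjusted p = 0.161), and Cd8b1 over Cd8a was 0.83 in males (adjusted p = 0.321) and 1.38 in females (adjusted p = 0.161). Cd8b1 over Cd8a in PAT1, 0.27 in all mice and not called, was −0.17 in males and 0.86 in females. Fewer samples lie behind these values. For Cd8a over Cd4, every PAT3 sample was below every Control sample in each sex. In males the values were at most −0.40 against at least −0.31, and in females at most 0.47 against at least 0.69. With 4 males in each group, such complete separation already gives the smallest p that this test allows, so a lower one was not possible. On leaving out 1 sample, Cd8a over Cd4 ranged from −0.88 to −0.61 in PAT1 minus Control and from −0.86 to −0.60 in PAT3 minus PAT1, and Cd8b1 over Cd8a from 0.57 to 1.03 in PAT3 minus PAT1. In PAT3 minus Control the same omissions left Cd8a over Cd4 at −1.61 to −1.34 and Cd8b1 over Cd8a at 1.01 to 1.24, past the threshold each time. No paired analysis was possible because the replicate numbers only follow sample order. For the losses and gains whose construction does not show the cause, the cause was not tested. Depth limits Cd8b1 and Cd96 most, with median counts of 6 to 17 per group.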
